A study of Mus musculus with 32 samples.

Results

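The genes described here code for the subunits of the mitochondrial respiratory chain, complexes I to IV, together with ATP synthase (complex V) and cytochrome c. They were taken from the deposited count table by gene symbol alone, with no use of their counts, and they number 94 of the 11818 genes in the table. Of these, 82 are coded in the nucleus and 12 by mitochondrial DNA. The nuclear members comprise 38 of complex I, 4 of complex II, 9 of complex III, 13 of complex IV, 17 of ATP synthase and Cycs, which codes for cytochrome c. The mitochondrial members comprise 6 of complex I, 1 of complex III, 3 of complex IV and 2 of ATP synthase. The thirteenth protein gene of mitochondrial DNA, mt-Nd4l, was not analysed here. The nuclear list also holds Ndufa12-ps, a pseudogene of Ndufa12.

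The libraries came from lung organoids. Epcam+ cells (CD31-/CD45-/CD326+) were isolated from the lungs of C57BL/6J mice and grown in Matrigel with an equal number of mouse lung fibroblasts of the CCL206 line, whose division mitomycin C had stopped. The cultures were treated for 72 h with vehicle, with extracellular vesicles (EVs, 1000000000 particles/mL) or soluble factors (SFs, 30 µg/mL) secreted by the human lung fibroblast line MRC5, or with osteoglycin (OGN, 10 µg/mL), a small leucine-rich proteoglycan. They were then split again on CD326 microbeads into an Epcam+ and a CCL206 fraction, and RNA was sequenced from both. Each of the 8 groups holds 4 libraries, and the libraries numbered 1 to 4 are cultures started from 4 mice. CCL206 is a single line, so its libraries differ in the mouse that gave the epithelial cells and not in the origin of the fibroblasts. In such sorted bulk samples, fewer cells of a type and less RNA per cell cannot be told apart.

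The respiratory chain passes electrons from NADH and succinate to oxygen and uses the energy to pump protons across the inner mitochondrial membrane, which drives ATP synthase. Its catalytic core is split between 2 genomes, because mitochondrial DNA codes for core membrane subunits of complexes I, III, IV and V, while the nucleus codes for all other subunits, including the whole of complex II. Nuclear and mitochondrial transcripts are therefore made by separate RNA polymerases and meet only as proteins. In the lung, alveolar type 2 cells, which make surfactant, are known for a high content of mitochondria.

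Total counts per library ranged from 1805914 to 17675454. No gene of the table, and so no member, is at 0 in any library, the lowest count being 1. Levels are given as CPM, counts scaled to a common library size with edgeR's trimmed mean factors. The sort enriched the labelled cells but did not purify them. The 6 epithelial markers summed to 5360 to 5600 CPM in vehicle-treated Epcam+ libraries and to 202 to 510 CPM in vehicle-treated CCL206 libraries. The 9 fibroblast markers in the table summed to 2240 to 3110 CPM and 11600 to 12900 CPM, respectively, and the 10 alveolar type 2 markers to 9550 to 16000 CPM and 1880 to 4840 CPM. Of the ciliated, macrophage and endothelial marker lists, 5 of 10, 2 of 10 and 0 of 6 genes were in the table. No pair of libraries of a group had counts that agreed within sampling noise.

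Respiratory chain transcripts made up a small part of the RNA. Counts of mitochondrial members exceeded those of nuclear members in all libraries but those of EV-treated CCL206 cells of mice 2, 3 and 4. Over the 32 libraries, the 12 mitochondrial members took 0.822% to 4.16% of all counts, and the nuclear members 0.633% to 1.43%. In vehicle-treated Epcam+ cells, the mitochondrial share was 3.19%, 3.15%, 2.92% and 3.45% for mice 1 to 4. In vehicle-treated CCL206 cells it was 2.29%, 2.53%, 2.5% and 2.33%. The Epcam+ fraction was thus higher in every mouse and the groups did not overlap. The nuclear share was 0.915%, 0.927%, 0.937% and 0.999% in the Epcam+ fraction, against 0.633%, 0.706%, 0.727% and 0.7% in the CCL206 fraction, again without overlap. As a share of all respiratory chain counts, the mitochondrial members did not separate the fractions, with a mean log2 ratio of -0.01 ± 0.01 (standard error, n = 4 mice).

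**Figure D1:**
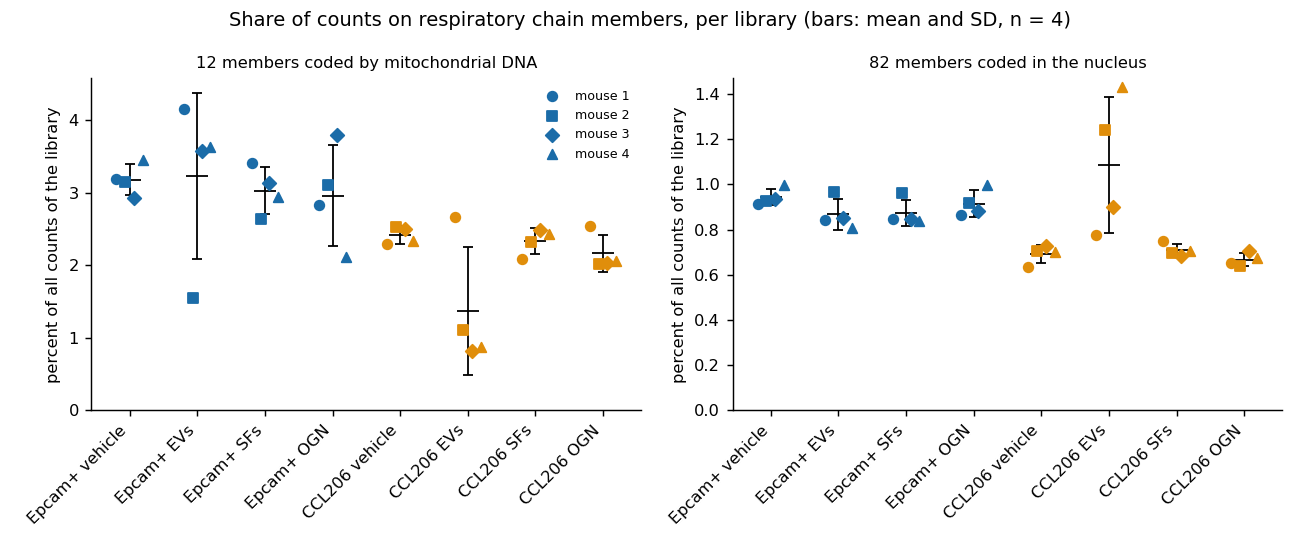
Percent of all counts in each of the 32 libraries that fell on mitochondrial members and on nuclear members (vertical axes), by treatment, with Epcam+ libraries in blue, CCL206 libraries in orange, a marker shape for each mouse, and bars for the mean ± SD of 4 libraries. In the EV-treated CCL206 group, 3 of the 4 libraries lie between 0.822% and 1.1% for the mitochondrial members, under all 4 vehicle libraries (2.29% to 2.53%).

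Levels were compared between genes only per kilobase of transcript. In vehicle-treated Epcam+ cells, the highest member was mt-Co1, the catalytic subunit of complex IV, at 7600 ± 428 CPM per kb (mean ± SD, n = 4). In the CCL206 fraction mt-Co1 stood at 5450 ± 190 CPM per kb. Among nuclear members the highest was Atp5b, the catalytic beta subunit of ATP synthase, at 640 ± 27.4 CPM per kb in Epcam+ and 476 ± 14.5 CPM per kb in CCL206 cells. Nuclear subunits of complex IV had the highest median level per kb of any complex in both fractions (185 and 115 CPM per kb), followed by ATP synthase (114 and 85.5) and complex III (75.7 and 48.8). Complex I, with the most subunits, had the lowest median (49.7 and 36.1). The nuclear members are short genes, with a median transcript of 1090 nt against 3456 nt for all genes with a known length, and 72 of the 80 members with a length lie under that median. A fit of length against fold change is therefore given beside the results below. Each length is that of a single annotated transcript of the gene, and which transcript the cells expressed was not tested.

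The comparison of the 2 vehicle-treated fractions asks how the epithelial and the fibroblast compartment differ in respiratory chain transcripts. Most members were higher in the Epcam+ fraction: 61 of 82 nuclear members passed the test in that direction, 3 were lower and 18 did not pass (edgeR's quasi-likelihood test, mouse as a block, adjusted p below 0.05). Of the 12 mitochondrial members, 10 were higher and 0 lower. The fractions differ over most of the transcriptome, with 71.4% of all genes called (35.6% higher and 35.8% lower), so the share of members called, 78.7%, is near that background, and 71 of the 74 calls were in the higher direction. The median log2 difference was 0.51 for nuclear and 0.69 for mitochondrial members, against 0.00 for all genes. At the level of single libraries, 55 nuclear members did not overlap in the higher direction and 3 in the lower (32.5% and 33.5% of all genes).

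By complex, all 9 nuclear members of complex III were higher in Epcam+ cells, with a median of 0.88. Uqcr10, a small subunit of this complex, had 47.68, 55.64, 56.82 and 63.32 CPM in the Epcam+ libraries of mice 1 to 4, and 22.72, 28.31, 28.2 and 29.19 CPM in the CCL206 libraries. The fractions did not overlap, and the log2 difference was 1.04 ± 0.10 (standard error, edgeR adjusted p = 3.23e-06). Cyc1, which carries the cytochrome c1 heme, differed by 0.81 ± 0.08 and Cycs, the carrier that takes its electrons, by 0.92 ± 0.09. In complex II, Sdhb, the iron-sulfur subunit of succinate dehydrogenase, was higher by 0.99 ± 0.09 and Sdhd, a membrane anchor, by 0.64 ± 0.07. The other anchor, Sdhc, had a difference of 0.08 ± 0.08, which did not pass (adjusted p = 0.394).

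In complex I, 26 nuclear members were higher and 2 lower, with a median of 0.37. Ndufs6, a zinc-binding accessory subunit, showed the largest difference among the nuclear members of the complex. Its libraries had 48.56, 64.96, 51.97 and 60.25 CPM in Epcam+ cells and 11.73, 14.85, 17.5 and 22.86 CPM in CCL206 cells. The lowest Epcam+ library stood above the highest CCL206 library, and the log2 difference was 1.77 ± 0.14 (edgeR adjusted p = 8.71e-07). Ndufa2, another accessory subunit, differed by 1.08 ± 0.12. In the opposite direction, Ndufb2 had 2.127, 0.9648, 0.8088 and 1.953 CPM in Epcam+ and 4.332, 4.025, 6.329 and 4.354 CPM in CCL206 cells. These are few reads, yet the groups did not overlap, and Ndufb2 was lower in Epcam+ cells by -1.64 ± 0.41 (edgeR adjusted p = 0.00412). Ndufv3, an accessory subunit of the NADH-oxidising module, was also lower, by -0.76 ± 0.11, with 33.12 to 34.8 CPM in Epcam+ and 47.66 to 63.13 CPM in CCL206 libraries.

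Complex IV held the largest difference of all members. Cox6b2, known as the testis isoform of subunit 6b, had 4.726, 7.397, 4.044 and 1.953 CPM in Epcam+ libraries and 0.317, 0.1388, 0.3723 and 0.5937 CPM in CCL206 libraries. The groups did not overlap and the log2 difference was 3.46 ± 0.56 (edgeR adjusted p = 0.000217). In CCL206 libraries Cox6b2 had very few reads, so the size of this difference is uncertain. The common isoform Cox6b1 differed by 0.54 ± 0.09. Cox7a2l, an assembly factor that joins complexes III and IV into supercomplexes, was the only complex IV member lower in Epcam+ cells, by -0.57 ± 0.08. It had 95.06, 91.66, 107.0 and 121.9 CPM there against 137.4, 160.0, 159.1 and 158.0 CPM in CCL206 cells. Its relative Cox7a2 went the other way, by 0.69 ± 0.12. Cox7c (0.91 ± 0.12), Cox6a1 (0.73 ± 0.08), Ndufa4 (0.53 ± 0.12) and Cox4i1 (0.37 ± 0.09) were higher, while Cox6c (0.14 ± 0.07) and Cox8a (-0.10 ± 0.09) did not pass.

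In ATP synthase, 14 of 17 members were higher and none lower, with a median of 0.58. Atp5k, the e subunit at the membrane dimer interface, had 20.26, 27.66, 25.88 and 36.54 CPM in Epcam+ libraries and 6.34, 7.495, 9.493 and 9.005 CPM in CCL206 libraries. That is a log2 difference of 1.75 ± 0.17 (edgeR adjusted p = 4.1e-06). Atp5j, the coupling factor of the peripheral stalk, differed by 1.17 ± 0.08, and the catalytic Atp5b by 0.43 ± 0.06. With the trend of fold change on transcript length removed, 42 nuclear members were higher and 7 lower, with a median of 0.29 and 70.4% of all genes called, and 7 mitochondrial members were higher. Cox6c then had a difference of -0.34 ± 0.10, against 0.14 before.

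**Figure D2:**
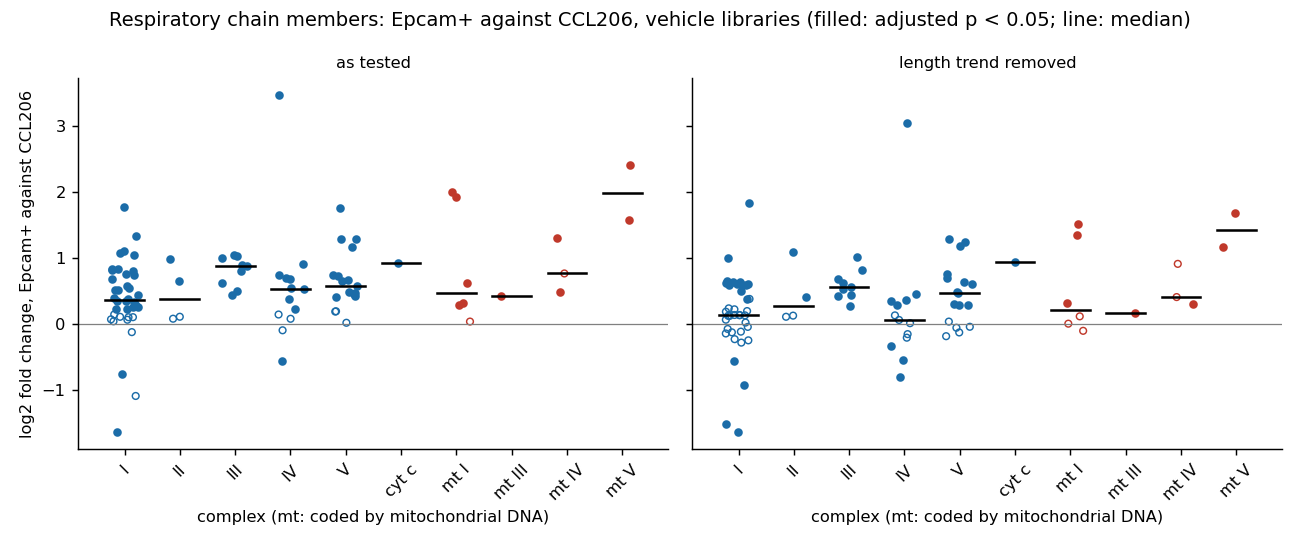
log2 difference (vehicle-treated Epcam+ minus CCL206, vertical axis) of each member, by complex, with nuclear members in blue and mitochondrial members in red; filled points passed adjusted p below 0.05 and the line is the median. Nearly all points lie above 0, with Cox6b2 highest at 3.46 and Ndufb2 lowest at -1.64.

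The proximal promoters of some nuclear members with population differences are shown because they are the regulatory sequence of genes that were higher together. Nuclear genes of the chain are known to be bound by NRF1 and by ETS factors of the NRF2 (GABP) type. Promoter windows of 250 bases before to 50 bases after the RefSeq start were available for 68 of the 82 nuclear members. The NRF1 letters, GCGCA and GCGC with any base between them, were found on either strand in 17 of the 68 (25.0%) against 1111 of 9166 genes of the table (12.1%). The letters CGGAAG (ETS) were found in 29 (42.6%) against 36.5%, AANATGGCG (YY1) in 10 (14.7%) against 6.34%, and GGGCGG (SP1) in 29 (42.6%) against 70.9%. Different motifs do not overlap in the sequences shown, but the NRF1 letters of Atp5k match on both strands at the same place. An ETS match of Atp5k that begins at -5 runs past the printed end and is not in capitals. A match is only a match of letters. The 120 bases before the RefSeq start of 1 gene of each complex follow 5′ to 3′ on the gene's strand, which is the minus strand in all 5, from RefSeq on GRCm38.p6, with NRF1 or ETS letters in capitals. These 5 were chosen after their values had been seen, and they are not typical of the members. All 5 carry NRF1 or ETS letters, which 40 of the 68 members have (58.8%, against 43.6% of genes). Cox6a1 is the 1 complex IV member of 11 with NRF1 letters.
Ndufs6, chr13:73328483-73328602: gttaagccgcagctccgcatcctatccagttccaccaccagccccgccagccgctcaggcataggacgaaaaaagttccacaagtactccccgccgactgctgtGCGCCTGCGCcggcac
Sdhd, chr9:50603850-50603969: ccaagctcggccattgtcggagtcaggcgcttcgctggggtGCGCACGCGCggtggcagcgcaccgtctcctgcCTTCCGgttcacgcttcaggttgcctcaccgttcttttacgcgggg
Uqcrh, chr4:116075071-116075190: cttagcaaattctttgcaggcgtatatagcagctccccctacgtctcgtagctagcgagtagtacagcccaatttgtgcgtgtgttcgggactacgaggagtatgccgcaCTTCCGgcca
Cox6a1, chr5:115348959-115349078: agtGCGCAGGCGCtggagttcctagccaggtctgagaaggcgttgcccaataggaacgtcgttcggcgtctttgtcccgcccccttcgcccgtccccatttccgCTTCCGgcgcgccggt
Atp5k, chr5:108434400-108434519: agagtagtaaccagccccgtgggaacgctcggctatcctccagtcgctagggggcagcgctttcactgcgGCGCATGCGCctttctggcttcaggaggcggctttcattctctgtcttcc

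The 12 mitochondrial members do not all carry the same information, because part of mitochondrial DNA has a nearly perfect copy in the nucleus. In the GRCm39 genome, positions 6390 to 11042 of mitochondrial DNA match chr1:24650616-24655269, where 4651 of 4654 aligned bases are identical (99.94%). This stretch holds all of mt-Co2, mt-Atp8, mt-Atp6, mt-Co3 and mt-Nd3, 63.6% of mt-Nd4 and 31.3% of mt-Co1, and none of mt-Nd1, mt-Nd2, mt-Nd5, mt-Nd6 or mt-Cytb. Every 100-base window of mt-Co2, mt-Atp8, mt-Atp6 and mt-Co3 occurs elsewhere in the genome without a mismatch, as do 98.8% of those of mt-Nd3. A stretch of mt-Co2 (MT 7313 to 7372) that is the same at chr1:24654287-24654346 on the minus strand, and a stretch around the start of mt-Nd3 (MT 9431 to 9491) with its copy at chr1:24652168-24652228, are shown as examples of the match. The capital marks the base that differs.
mt-Co2: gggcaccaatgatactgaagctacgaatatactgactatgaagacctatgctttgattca
mt-Nd3: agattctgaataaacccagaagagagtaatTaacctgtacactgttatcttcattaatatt
Copy of mt-Nd3: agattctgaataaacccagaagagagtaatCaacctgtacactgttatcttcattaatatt

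Counts of the 5 genes that lie whole inside the copy are set beside those of the 7 others. Summed per library, the 5 ranged from 399 to 2261 counts, a 5.67-fold spread, while the 7 others ranged from 33400 to 639173 counts, a 19.1-fold spread. The total counts spread 9.78-fold. The 5 genes made up 0.225% to 2.82% of all mitochondrial member counts. Across the 32 libraries, Spearman's rho with the total count was 0.064 for mt-Co2, 0.077 for mt-Atp6, 0.19 for mt-Atp8, 0.25 for mt-Nd3 and 0.3 for mt-Co3, against 0.49 for mt-Nd6 and 0.85 to 0.9 for the 6 remaining genes. By gene, the spread over libraries was 4.22-fold to 81-fold for the 5, the widest being that of mt-Atp8, which had 1 to 81 counts, and 12.7-fold to 44.3-fold for the 7. All libraries share 1 reference, so these are descriptions only. The handling of reads that match more than 1 place is not given in the sources used here, and its part in these counts was not tested. The table also lists the nuclear copies themselves, such as Gm28661 (a copy of mt-Co2, 38 to 430 counts) and Gm10925 (a copy of mt-Atp6, 20 to 549 counts). The levels of the 5 genes are therefore uncertain in what follows.

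**Figure D3:**
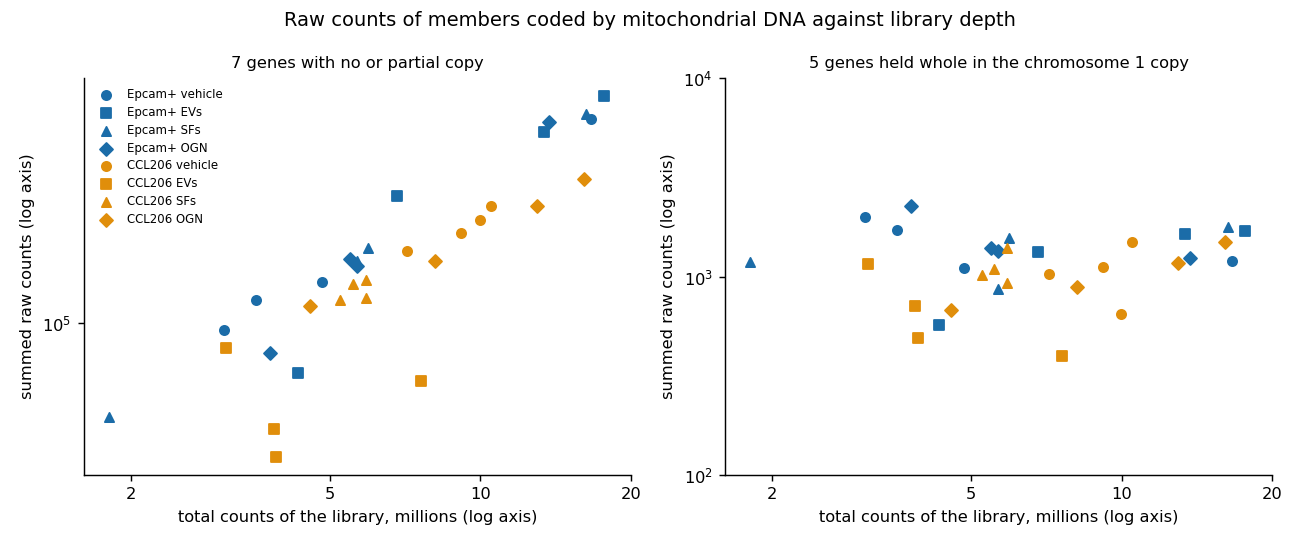
Raw counts summed per library over the 7 mitochondrial members with no or partial copy and over the 5 held whole in the nuclear copy (panels, vertical axes, log scale) against the total count of the library (horizontal axis, log scale), 1 point per library, Epcam+ in blue and CCL206 in orange, with a marker shape for each treatment. The sum of the 7 genes ranges from 33400 to 639173 counts, that of the 5 from 399 to 2261 counts.

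Among the 7 other mitochondrial members, 6 were higher in vehicle-treated Epcam+ than CCL206 cells. The log2 difference was 0.61 ± 0.08 for mt-Nd1, which codes for a core membrane subunit of complex I, and 0.48 ± 0.06 for mt-Co1, whereas mt-Nd5, the distal proton pump, did not differ by the test (0.04 ± 0.08, adjusted p = 0.682). mt-Nd6 stood apart from them. It is the only protein gene on the light strand of mitochondrial DNA, and it had 79.34, 60.46, 72.59 and 113.8 CPM in Epcam+ against 18.49, 25.4, 18.33 and 19.2 CPM in CCL206 libraries. The fractions did not overlap, with a difference of 1.99 ± 0.17 (edgeR adjusted p = 1.42e-06). Of the 5 genes inside the copy, mt-Co2 had 22.39, 237.0, 84.11 and 174.6 CPM in Epcam+ libraries, more than a 10-fold range within 1 group, and overlapped the CCL206 libraries at 41.53, 51.22, 50.07 and 20.19 CPM.

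EVs were the treatment under which respiratory chain transcripts changed most, and the change was in the CCL206 fraction. Nuclear members rose in 70 of 81 tested cases and fell in 0, while 5 of the 12 mitochondrial members fell and 0 rose (edgeR's quasi-likelihood test over the 16 CCL206 libraries, adjusted p below 0.05). Over all genes, 36% were called, 19.8% higher and 16.2% lower. The median log2 fold change was 0.80 for nuclear members and -0.26 for mitochondrial members, against -0.01 for all genes. Of the nuclear members, 79 of 81 had a fold change above 0, and 38 had all EV libraries above all vehicle libraries (12.1% of all genes). The number of calls depended on the libraries of mice 2 and 4, and on the spread, which was estimated over all 16 CCL206 libraries. The standard errors given for EVs below thus also draw on the libraries of the other treatments. Without mouse 2, 1 member and 0.162% of all genes were called, and without mouse 4, 31 members and 6.07% of genes. Without the EV-treated CCL206 libraries of both mice, 23 members rose, the nuclear median was 0.27 and 5.48% of genes were called. With only the 8 libraries compared, which keep mice 2 and 4, the members called numbered 24, beside 3.34% of all genes.

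The rise took in every complex. In ATP synthase, 16 of 17 members rose, with a median of 0.90. Atp5md, a small subunit of the membrane domain, had 34.87, 50.38, 53.23 and 55.81 CPM with vehicle and 76.72, 197.9, 106.8 and 248.6 CPM with EVs for mice 1 to 4. Every EV library stood above every vehicle library, those of mice 2 and 4 farthest, and the log2 fold change was 1.63 ± 0.22 (edgeR adjusted p = 0.00142). Atp5mpl, another small membrane subunit, rose by 1.35 ± 0.20, and the epsilon and delta subunits of the rotor, Atp5e and Atp5d, by 1.52 ± 0.27 and 1.15 ± 0.18. The rise was smallest for Atp5b (0.40 ± 0.10) and Atp5a1 (0.42), the beta and alpha subunits of the catalytic head, and for Atp5c1 (0.40), its central stalk. Atp5g2, a gene for the membrane ring subunit c, had a value of -0.28 and did not pass.

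Complex I had 32 of 38 members higher, with a median of 0.80. Ndufc2, an accessory subunit of the membrane arm, had 38.67, 47.19, 41.32 and 41.76 CPM with vehicle and 63.45, 148.0, 70.76 and 200.6 CPM with EVs. The groups did not overlap, and it rose by 1.44 ± 0.25 (edgeR adjusted p = 0.00313). Ndufb7, which lies on the intermembrane face, rose by 1.19 ± 0.21. The 6 members that did not pass include Ndufs1, the largest subunit of the NADH-oxidising module, at 0.08, and Ndufb2 at -0.14.

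Complex II shows the spread within a complex of 4 proteins. Sdhb had 44.7, 46.91, 46.91 and 46.21 CPM with vehicle and 49.2, 126.7, 74.02 and 152.9 CPM with EVs, and rose by 1.09 ± 0.24 (edgeR adjusted p = 0.00583). Sdha, its flavoprotein partner, had 288.4, 258.2, 272.2 and 278.7 CPM with vehicle and 239.5, 289.0, 311.4 and 264.0 CPM with EVs. The Sdha groups overlap and the fold change was 0.01. The anchors Sdhc and Sdhd rose by 0.73 ± 0.18 and 0.49 ± 0.14. In complex III, 8 of 9 members rose. Uqcrh, the hinge protein beside cytochrome c1, had 37.19, 65.93, 62.73 and 55.12 CPM with vehicle and 70.57, 171.1, 83.16 and 183.9 CPM with EVs, a rise of 1.17 ± 0.24 without overlap. The exception, the core protein Uqcrc2, stood at 0.16.

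In complex IV, 10 of 12 tested nuclear members rose, with a median of 0.87. Cox6a1 had 54.95, 68.98, 66.36 and 72.53 CPM with vehicle and 92.9, 219.2, 124.2 and 260.4 CPM with EVs. It did not overlap and rose by 1.36 ± 0.21 (edgeR adjusted p = 0.00199). Cox6b1 and Cox4i1, which codes for the regulatory subunit that binds ATP, rose by 1.26 ± 0.23 and 1.22 ± 0.21. Cox7a2l rose by 0.93 ± 0.18, while Cox7a2 had a value of 0.39 ± 0.20 that did not pass (adjusted p = 0.128). Cycs rose by 0.49 ± 0.15, with 3 of 4 mice in that direction.

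**Figure D4:**
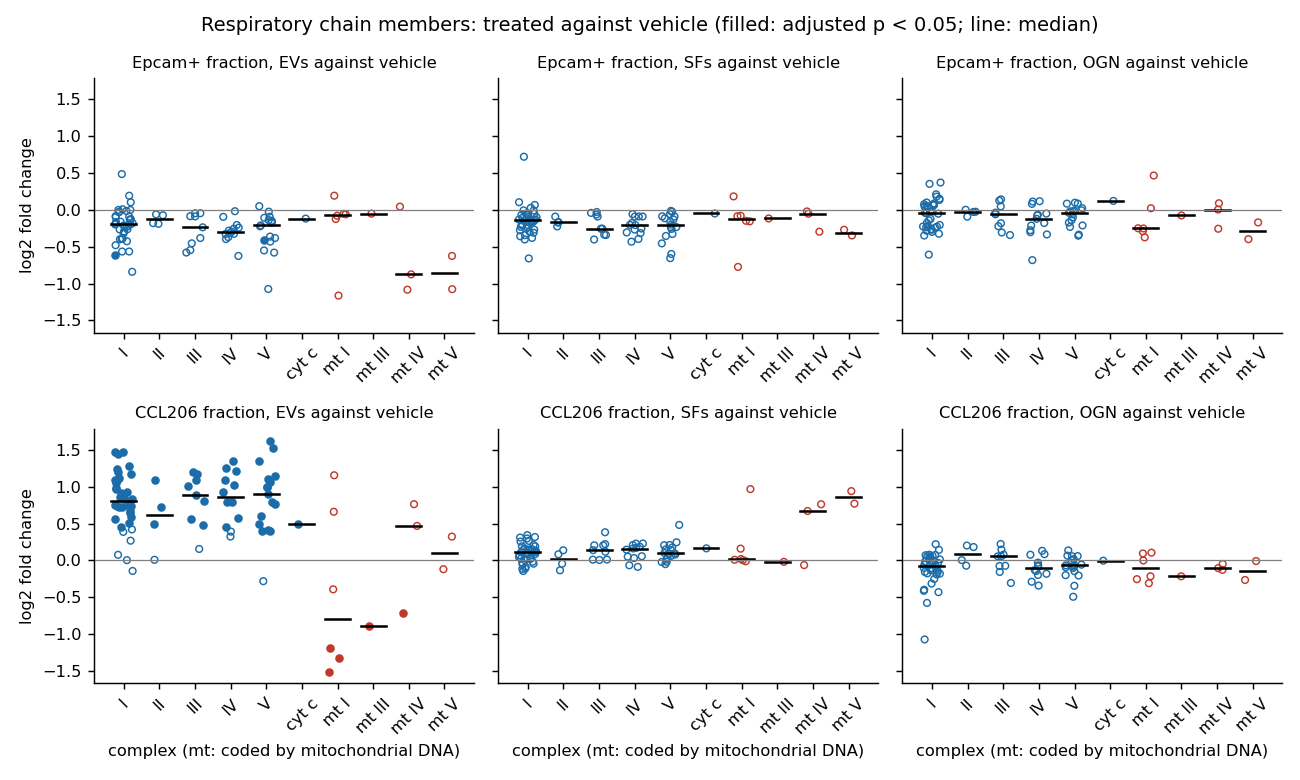
log2 fold change against vehicle (vertical axis) of each member, by complex, for each treatment and fraction; nuclear members are blue, mitochondrial members red, filled points passed adjusted p below 0.05, and lines are medians. In EV-treated CCL206 cells the nuclear median is 0.80 and the mitochondrial median -0.26, whereas no member passed with SFs or OGN.

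In the same libraries, 5 mitochondrial members fell, each lower than vehicle in mice 2, 3 and 4 and higher in mouse 1. mt-Nd5 had 3717, 4347, 3949 and 3975 CPM with vehicle and 4422, 1116, 866.7 and 556.2 CPM with EVs. The EV library of mouse 1 was above all vehicle libraries and the other 3 far below them, with a fold change of -1.51 ± 0.40 (edgeR adjusted p = 0.012). mt-Nd4, another proton pump subunit of complex I, had 1243, 1474, 1445 and 1317 CPM with vehicle and 1628, 427.6, 280.5 and 298.9 CPM with EVs, a fold change of -1.33 ± 0.37. mt-Co1 had 8089, 8568, 8748 and 8278 CPM with vehicle and 9065, 4656, 3761 and 3839 CPM with EVs, a fold change of -0.71 ± 0.20. The same split of the mice was seen for mt-Nd2 (-1.19 ± 0.37) and mt-Cytb (-0.89 ± 0.25), and the groups overlapped for all 5. Leaving out mouse 2, 3 or 4 in turn left 0 of the 12 called lower. mt-Nd6 had 20.07, 23.19, 26.24 and 62.51 CPM with EVs, higher than vehicle in 3 of 4 mice. mt-Nd1 (-0.39 ± 0.18), mt-Nd6 (0.66 ± 0.33) and the 5 genes inside the copy, from -0.12 for mt-Atp8 to 1.16 for mt-Nd3, did not pass. The 5 that fell are the longest of the 12, from 1038 nt for mt-Nd2 to 1824 nt for mt-Nd5. The others run from 204 nt for mt-Atp8 to 957 nt for mt-Nd1. A fall of these genes and a fall of longer mitochondrial transcripts cannot be told apart here.

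The mitochondrial share of all counts in the EV-treated CCL206 libraries was 2.67%, 1.1%, 0.822% and 0.868%, and the nuclear share 0.774%, 1.24%, 0.902% and 1.43%. The ratio of mitochondrial to nuclear member counts was 3.61, 3.58, 3.43 and 3.33 with vehicle and 3.45, 0.891, 0.911 and 0.606 with EVs. The nuclear share was thus highest in mice 2 and 4, but the mitochondrial share was lowest in mouse 3, whose nuclear share was close to that of mouse 1. The marker sums of the same libraries stand beside these shares. The epithelial markers summed to 375 to 629 CPM in EV-treated CCL206 libraries (2 of 6 higher), the alveolar type 2 markers to 2820 to 3950 CPM (2 of 10 lower), the ciliated markers to 277 to 411 CPM (1 of 5 lower), the macrophage markers to 90.5 to 124 CPM (1 of 2 higher) and the fibroblast markers to 7830 to 13000 CPM (3 of 9 higher and 2 lower). The part of the cell mix in these changes was not tested.

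Short genes moved with the nuclear members in these libraries. Spearman's rho between transcript length and a gene's deviation was -0.288, -0.587, -0.369 and -0.628 in the EV-treated CCL206 libraries of mice 1 to 4, against -0.139 to 0.191 in the vehicle libraries. The nuclear members' median log2 ratio by mouse was 0.497, 1.04, 0.281 and 1.34, beside 0.428, 0.864, 0.229 and 1.19 for 654 other genes under 1000 nt. Among genes under 700 nt, the median fold change was 0.99 for 22 members and 0.89 for 261 others. From 1500 to 2500 nt it was 0.59 for 17 members, of which 16 rose, and 0.27 for 2127 others. From 2500 nt it was 0.64 for 14 members, of which 10 rose, and -0.16 for 7908 others, of which 9.84% rose. The members' values thus lie nearest those of other genes in the shortest class. The classes rest on annotated lengths, such as 4030 nt for Sdhb. Whether the cells expressed shorter transcripts of such members was not tested.

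With the length trend removed from each library, 37 nuclear members rose, 3 fell and the nuclear median was 0.26, with 23.4% of all genes called. Atp5md and Atp5mpl have no transcript length here and were left as they were by this step. Sdhb stood at 1.18 ± 0.24, against 1.09 before, while Cox6a1 went from 1.36 to 0.48 ± 0.11 and Cox4i1 from 1.22 to 0.47 ± 0.08. Cox6c (-0.11), Cox8a (-0.39) and Ndufa4 (-0.30) took the opposite sign. Of the mitochondrial members, 6 then fell, mt-Nd5 by -1.77 ± 0.42 and mt-Nd1 by -0.96 ± 0.22, and the median was -1.02. The trend was fitted on nuclear genes alone and subtracted from the mitochondrial members by their length. Whether it holds for mitochondrial transcripts was not tested, so these values do not add to the fall given above. Since nearly all nuclear members are short, a change of these genes and a change of short transcripts cannot be told apart for most of them. RNA integrity values were not used here.

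**Figure D5:**
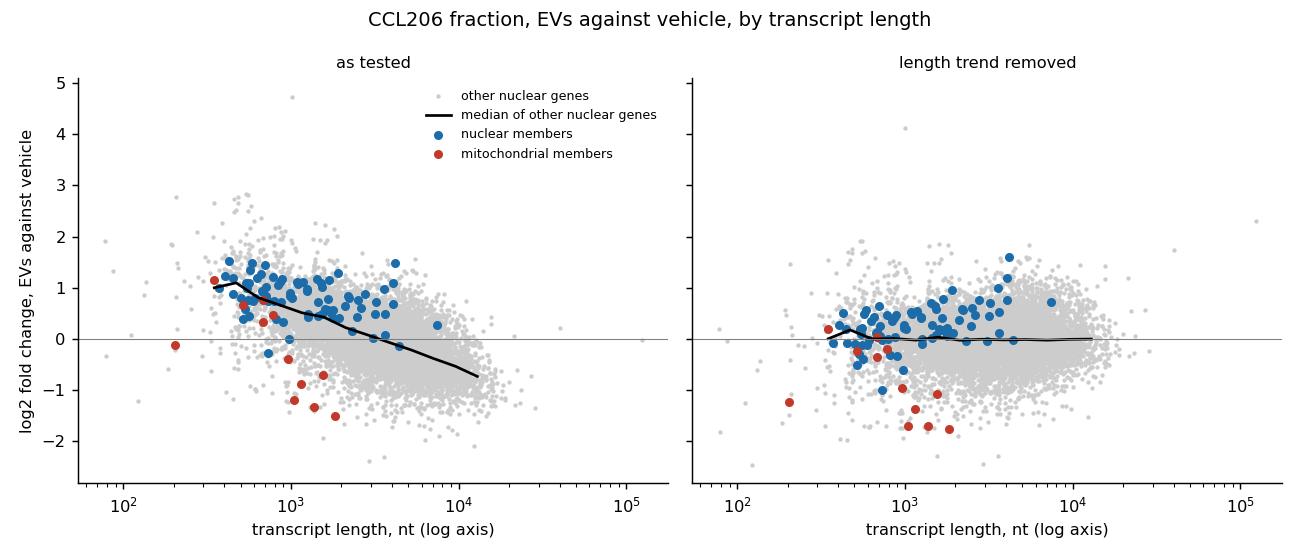
log2 fold change of EV-treated against vehicle-treated CCL206 cells (vertical axis) against transcript length in nucleotides (horizontal axis, log scale), as tested and with the length trend removed (panels), with nuclear members in blue, mitochondrial members in red, other nuclear genes in grey and their median as a line. As tested, the cloud falls with length (Spearman's rho -0.6 over 11551 genes and -0.37 over 79 members). Members with an annotated length over 2500 nt sit above it, with a median of 0.64 against -0.16.

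In the Epcam+ fraction of the same cultures, EVs changed few members. Ndufs6 and Atp5j fell and 0 members rose, of 93 tested, beside 0.888% of all genes called (0.35% lower). Ndufs6 (chromosome 13, 73319876 to 73328482, GRCm38.p6) had 48.56, 64.96, 51.97 and 60.25 CPM with vehicle and 35.52, 37.23, 38.9 and 35.12 CPM with EVs. All 4 EV libraries were below all vehicle libraries, in 4 of 4 mice, with a fold change of -0.62 ± 0.12 (edgeR adjusted p = 0.0151). Atp5j (chromosome 16, 84827871 to 84835857) had 108.3, 141.2, 136.5 and 134.7 CPM with vehicle and 91.74, 92.5, 108.0 and 99.87 CPM with EVs. It also did not overlap, and its fold change was -0.41 ± 0.08 (edgeR adjusted p = 0.0166). Both genes are among those higher in Epcam+ than in CCL206 cells with vehicle, and the fibroblast markers were higher in EV-treated Epcam+ libraries (3160 to 3740 CPM, 4 of 9 higher) than in vehicle libraries (2240 to 3110 CPM). The epithelial markers overlapped, with 4830 to 5880 CPM with EVs and 5360 to 5600 CPM with vehicle (0 of 6 higher and 0 lower). So did the alveolar type 2 markers, at 10600 to 13500 CPM and 9550 to 16000 CPM (1 of 10 lower). The ciliated markers had 1100 to 1320 CPM and 1250 to 1530 CPM (1 of 5 lower), the macrophage markers 184 to 284 CPM and 185 to 253 CPM. The part of the cell mix in the result was not tested.

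Both calls depended on the setting. Without the mouse as a block, 0 members passed, and without mouse 1, 2 or 3 in turn 0 passed, as without the EV-treated Epcam+ library of mouse 2 alone. DESeq2 called 6. At an unadjusted p under 0.05 there were 29 of 93 members, beside 1195 of 11716 genes. Values were below 0 for 86 of 93 members, with a median of -0.20 against 0.00 for all genes. The nearest to passing were Uqcrh (-0.58 ± 0.15, adjusted p = 0.0711) and Uqcr10 (-0.55 ± 0.15, adjusted p = 0.0896). Libraries did not overlap in the lower direction for 7 members (1.49% of all genes) and in the higher for 1 (3.24%). Among mitochondrial members, the EV-treated Epcam+ library of mouse 2 stood apart, with 1457 CPM for mt-Nd5 against 4620 to 5605 CPM in the other 3 and a mitochondrial share of 1.55% against 3.58% to 4.16%. No mitochondrial member passed in this comparison.

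The difference between the fractions in the EV response was tested directly as an interaction. A positive value means a more positive log2 fold change in CCL206 than in Epcam+ cells. The test called 69 of 82 nuclear members positive and 0 negative. The nuclear median was 1.01 against -0.06 for all genes, of which 23.8% were called (11.8% higher). The interaction was 1.56 ± 0.27 for Ndufs6, 1.72 ± 0.30 for Uqcrh, 1.57 ± 0.24 for Cox6a1 and 2.04 ± 0.35 for Atp5e. Of the mitochondrial members, mt-Nd5 (-1.48 ± 0.51) and mt-Co1 (-0.78 ± 0.28) were lower and mt-Nd3, inside the nuclear copy, was higher (2.29 ± 0.75). Without mouse 4, 15 members and 2.21% of all genes were called, and without mouse 2, 30 members and 2.97%. Without the EV-treated CCL206 libraries of mice 2 and 4, 3 members and 0.279% of genes were called. With the length trend removed, 36 members and 11.5% of genes were called.

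SFs and OGN were compared with the same vehicle libraries as EVs, so the comparisons are not independent. With SFs, 0 members passed in Epcam+ cells (0.23% of all genes called) and 0 in CCL206 cells (0.0599%), and DESeq2 also called 0 in both. In CCL206 cells, 4 members and 2.63% of all genes passed with only the 8 libraries compared, and 1 member and 0.924% without the EV-treated libraries. At an unadjusted p under 0.05 there were 21 of 93 members in Epcam+ cells, beside 913 of 11716 genes. In CCL206 cells there was 1 of 93, beside 621 of 11689 genes. Values in Epcam+ cells lay below 0 for 88 of 93 members, with a median of -0.16. Uqcrq, a ubiquinone-binding subunit of complex III, had 76.51, 84.9, 72.39 and 89.82 CPM with vehicle and 55.57, 67.91, 68.82 and 68.05 CPM with SFs. The groups did not overlap, but the fold change of -0.34 ± 0.10 did not pass over all genes (edgeR adjusted p = 0.337). Libraries did not overlap for 2 members in the lower direction (1.25% of all genes) and for 0 in the higher (2.27%). In CCL206 cells, values were above 0 for 75 of 93 members, with a median of 0.12, and libraries did not overlap for 5 members in the higher direction (4.63% of all genes) and 0 in the lower (2.4%). Of these 5, mt-Atp6, mt-Co2 and mt-Co3 lie inside the nuclear copy.

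With OGN, 0 members passed in Epcam+ cells, where 2.7% of all genes were called (1.48% higher and 1.22% lower), and 0 in CCL206 cells, where 4.56% were called (2.7% higher and 1.86% lower). DESeq2 called 0 in both. In CCL206 cells, 1 member and 11.7% of all genes passed with only the 8 libraries compared, and 1 member and 15.1% without the EV-treated libraries. At an unadjusted p under 0.05 there were 8 of 93 members in Epcam+ cells, beside 1540 of 11716 genes. In CCL206 cells there were 2 of 93, beside 1831 of 11689 genes. The medians of the members were -0.06 and -0.07. Cox8a, a small subunit of complex IV, had 141.3, 138.0, 136.9 and 158.4 CPM with vehicle and 125.2, 121.5, 122.5 and 105.7 CPM with OGN in Epcam+ cells. The 4 OGN libraries were below all vehicle libraries, with a fold change of -0.28 ± 0.10 (edgeR adjusted p = 0.167). In all, libraries did not overlap for 5 members in the lower and 2 in the higher direction in Epcam+ cells (2.86% and 3.2% of all genes), and for 1 in each direction in CCL206 cells (7.79% lower and 8.64% higher). The interactions for SFs and OGN called 0 members in edgeR and DESeq2, beside 0 and 0.551% of all genes in edgeR. At an unadjusted p under 0.05 they had 10 and 1 of 94 members, beside 590 and 813 of 11805 genes. The standard errors of members had a median of 0.13 in Epcam+ and 0.20 in CCL206 cells on the log2 scale. They set what these fits could show, and their spread was estimated with the EV-treated libraries included. Without those libraries, more genes were called in CCL206 cells, as given above.

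The genes that build, express and surround the chain were examined as lists. They are read against the 36% of all genes called with EVs in CCL206 cells (19.8% higher and 16.2% lower), or 23.4% with the length trend removed (13.9% higher and 9.49% lower). In that comparison, 8 of 18 assembly factors of complex IV rose and 0 fell (median 0.60), Cox20 by 1.28 ± 0.21. With the length trend removed, 4 of the 18 rose and the median was 0.12. Of the 16 factors of complex I, 3 rose and 1 fell (median 0.24), and 1 and 0 with the trend removed. Of the 4 factors of ATP synthase 3 rose, Fmc1 by 1.91 ± 0.27, and 1 with the trend removed. Of 77 mitochondrial ribosomal proteins, which translate the mitochondrial members, 45 rose and 0 fell (median 0.56), 27 and 3 with the length trend removed. A symbol match for cytosolic ribosomal proteins, which also took in pseudogenes and S6 kinases, had 107 of 137 higher and 2 lower (median 0.91), and 50 and 8 with the trend removed. Restricted, after its values had been seen, to the 84 genes without pseudogenes, S6 kinases and Rps19bp1, it had 74 higher and 0 lower (median 0.79), and 40 and 7 with the trend removed.

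Of 20 genes that transcribe, keep or stabilise mitochondrial DNA and RNA, 3 rose and 2 fell with EVs in CCL206 cells (median 0.12), among them Fastkd3, which fell by 1.08 on the log2 scale. Of 10 nuclear regulators of mitochondrial genes, 0 rose and 2 fell, Gabpb2 (-0.92 ± 0.19), a subunit of GABP, and Sp1 (-0.91 ± 0.20). Of 14 enzymes of the tricarboxylic acid cycle, 4 rose and 0 fell (3 and 1 with the trend removed), including Mdh2 by 0.52 ± 0.11. Among 13 targets of HIF-1, the factor that responds to low oxygen, 11 rose and 0 fell (median 0.55), Bnip3 by 0.97 ± 0.15, and 9 rose with the length trend removed.

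HIF-1 targets were also higher with OGN, under which no respiratory chain member passed. In CCL206 cells, where OGN raised 2.7% of all genes, 11 of 13 rose, with a median of 0.90, Slc2a1, a glucose carrier, by 1.27 ± 0.09 and Pdk1, which restrains entry of pyruvate into the cycle, by 0.92 ± 0.08. In Epcam+ cells 5 of 13 rose with OGN (1.48% of all genes), Bnip3 by 0.91 ± 0.11, and 2 with EVs (0.538%), Vegfa by 0.47 ± 0.09 and Pgk1 by 0.30 ± 0.07. Between the vehicle-treated fractions, with 71.4% of all genes called (35.6% higher in the Epcam+ fraction), 58 of 77 mitochondrial ribosomal proteins were higher in Epcam+ cells and 1 lower (median 0.54), as were all 4 assembly factors of ATP synthase (median 0.97). Ppargc1a, a coactivator known to drive mitochondrial biogenesis, was lower in Epcam+ cells by -2.28 ± 0.16. Of the enzymes of the tricarboxylic acid cycle, 8 were higher and 3 lower, Mdh2 among the latter at -0.50 ± 0.07.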

How the data were processed

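RNA was sequenced from 32 libraries. Per the study's methods and the submitters' notes, the authors used Trimmomatic 0.30 for trimming, an alignment to the mouse genome and DESeq2 1.34.0; the labels name GRCm39 and the methods GRCm38 patch 6. The deposited values are raw counts per gene, not normalised. Reads from overlapping or antisense genes cannot be told apart here, since strand handling is not given in the sources used here.

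Counts were tested with edgeR 4.0.16 in R 4.3.3 (trimmed mean scaling, filterByExpr, quasi-likelihood F test, Benjamini-Hochberg adjustment over all genes), with the 16 libraries of a fraction for treatments, the 8 vehicle libraries for fractions and all 32 for interactions. Mouse was a block, because libraries of the same number come from cultures started with epithelial cells of the same mouse. Their deviations correlated with a median of 0.17 (Epcam+) and 0.15 (CCL206), against -0.049 and -0.047 between mice. Every pair of a group differed beyond sampling noise. The standard error is the log2 fold change over the square root of F. CPM have a prior of 0.5 in log values per mouse. Length trends were removed per library by lowess (span 0.5) on transcript lengths, known for 98.9% of genes. The trend was fitted on nuclear genes alone and applied to mitochondrial genes by their length. A length is that of the canonical GENCODE transcript of the gene. The nuclear copy was found with blastn 2.17.0. The genes named are all mitochondrial members, the 2 called nuclear members of each complex with the smallest p in each direction (or, with none called, the 1 with the smallest p), the isoforms of complex IV with Ndufa4, Cox6c, Cyc1 and Cycs, and the 1 or 2 genes of smallest p in each pathway list. Others were named after their values were seen. The members and lists were chosen with earlier results of these data known. DESeq2 1.42.0, other scalings and filters, a missing block and left-out mice served as alternatives. The steps were tested on simulated data. With 4 libraries per group, precision is that of the spread between mice.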

Additional observations from a re-analysis of the deposited data

Results flagged for a closer look

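In 22 of 232 sets of 4 libraries tested (9.48%), the highest or lowest library stood farther from the others than Dixon's 95% limit allows, where chance gives about 1 in 20. In EV-treated CCL206 cells, the library of mouse 1 was highest, with a gap to the next of 0.85 of the group's range for the mitochondrial share of counts, 0.891 for mt-Nd4, 0.855 for mt-Nd5 and 0.831 for mt-Co1, and that of mouse 4 was highest for mt-Nd6 (0.855). In OGN-treated CCL206 cells, the gap was 0.923 for the mitochondrial share, 0.89 for mt-Cytb, 0.834 for mt-Co3, 0.896 for Sdhb, 0.83 for Uqcrb and 0.849 for Atp5e. In vehicle-treated CCL206 cells it was 0.862 for mt-Nd3, 0.877 for mt-Nd6, 0.857 for Ndufb2 and 0.912 for Cox7a2l, and with SFs 0.924 for Atp5e. In Epcam+ cells it was 0.899 for mt-Nd1 with vehicle, 0.845 for mt-Nd2 with EVs, 0.896 for the nuclear share, 0.845 for Cox6a1 and 0.869 for Atp5k with SFs, and 0.947 for Atp5k with OGN.

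The EV response differed between the fractions, by the interaction term, in 21 of the 31 members named, beside 23.8% of all genes. The nuclear members named for each complex were taken by their smallest p, so this count partly restates that choice. On the log2 scale, as CCL206 minus Epcam+, the difference was 1.56 for Ndufs6 and 1.43 for Ndufb7 in complex I, 1.24 for Sdhb and 0.66 for Sdhd in complex II, and 1.45 for Uqcrb, 1.72 for Uqcrh and 0.50 for Cyc1 in complex III. It was 0.58 for Cycs. In complex IV it was 1.28 for Cox4i1, 1.57 for Cox6a1, 1.51 for Cox6b1, 1.07 for Cox6c, 0.76 for Cox7a2, 0.93 for Cox7a2l, 0.74 for Cox8a and 0.88 for Ndufa4, and in ATP synthase 2.04 for Atp5e and 1.26 for Atp5d. Of the mitochondrial members, mt-Nd5 (-1.48), mt-Co1 (-0.78) and mt-Nd3 (2.29) differed.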

How the results depend on the processing

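With EVs in CCL206 cells, 75 members were called. The number was 46 with the length trend removed, 24 with only the 8 libraries compared, 1 to 75 with a mouse left out, and 23 without the EV-treated CCL206 libraries of mice 2 and 4, an alternative chosen after seeing the data. For the EV interaction (72 called) it was 36 with the length trend removed, 15 to 76 with a mouse left out and 3 without those libraries. With EVs in Epcam+ cells (2 called) it was 0 without the replicate block, 6 with DESeq2, 0 to 3 with a mouse left out and 0 without the EV-treated Epcam+ library of mouse 2. The pairing by mouse changed no other count of calls by over 1.5 times. For OGN (0 called in both fractions), 0 to 1 was called in Epcam+ cells with a mouse left out, and in CCL206 cells 1 with only the 8 libraries compared and 1 without the EV-treated libraries. For SFs in CCL206 cells (0 called), these settings gave 4 and 1. All genes called with EVs in CCL206 cells numbered 4207, 2738 with the length trend removed, 19 without mouse 2, 711 without mouse 4 and 387 with only the 8 libraries. For the EV interaction they numbered 2815, and 1357 with the length trend removed. They numbered 351 without mouse 2, 261 without mouse 4 and 33 without the EV-treated CCL206 libraries of mice 2 and 4.

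With the length trend removed, some log2 values took the opposite sign: Cox6c (-0.11), Cox8a (-0.39) and Ndufa4 (-0.30) with EVs in CCL206 cells, Cox6c (-0.34) between fractions, and Cox6c (-0.0316), Cox7a2 (-0.0507), Cox8a (-0.28) and Ndufa4 (-0.19) in the EV interaction. The cause was not tested. Of all values of named members under alternatives, 3158 kept their direction and call, 142 lost it, 22 gained it, 175 moved and 8 reversed.

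The libraries' depth, 1805914 to 17675454 counts, limits low members such as Ndufb2, Cox6b2 and mt-Nd3. EVs and the length trend of mice 2 and 4 cannot be told apart. Purity of the fractions was not measured other than by markers, and vehicle libraries are shared by all treatments.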
